A study of Homo sapiens with 22 samples.

Results

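The genes described here encode the proton pump that acidifies lysosomes, the lysosomal proteases that need the acid, and proteins that line or regulate the organelle. They were taken by gene name, as every row named as a V-ATPase subunit (ATP6V0 or ATP6V1), an accessory subunit (ATP6AP1 or ATP6AP2), a cathepsin other than CTSG, a LAMP membrane protein, or TFEB, TFE3 or MITF. That choice was made with earlier results of these data known. The names matched 45 of 60240 genes, and 40 of the 45 had enough reads to be tested. Untested were CTSE, ATP6V0A4, ATP6V1B1, ATP6V1C2 and ATP6V1G3, of which ATP6V1G3 had 0 reads in all 22 libraries.

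RNA with a polyA tail was sequenced from hematopoietic progenitor cells grown from the embryonic stem cell line H1, which is human and established. In the DOX arm, treated with Dox, MYC was expressed ectopically, and libraries were made every 2 days of culture between day 12 and day 20. The UT arm had no ectopic MYC and was sampled on the same days and on day 10. Each arm and day had 2 libraries, so there were 11 groups, and the labels place all of them in 1 batch. The day on which Dox was added is not given in the sources used here. No group received Dox without ectopic MYC, so effects of the drug and of MYC cannot be told apart. It is also not stated whether the 2 replicates of a group came from different cultures, and a p-value here covers only the variation among the sequenced libraries, part or all of which may be technical.

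The V-ATPase is a rotary pump. Its cytosolic V1 ring hydrolyses ATP on the A and B subunits, and its V0 part carries protons through the membrane along the a subunit and the c ring. Cathepsins are proteases that are activated in the acid lumen and, in myeloid cells, also fill granules and endosomes. TFEB, TFE3 and MITF form the MiT/TFE family, which binds the E-box CACGTG in promoters of lysosomal genes (the CLEAR element), and MYC with its partner MAX binds the same 6 letters.

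Promoters from 250 bases before to 50 bases after the start were held in RefSeq (GRCh38.p14) for 31 of the 45 genes. CTSB, CTSK, CTSO, CTSS, CTSW, LAMP2, LAMP3, ATP6V0D2, ATP6V0E1, ATP6V1A, ATP6V1B2, ATP6V1C1, ATP6V1E2 and ATP6V1H had no entry. The E-box CACGTG, which reads the same on both strands, stood in 8 of these 31 promoters (25.8%), against 7.26% of all 35116 promoters of that length. With a T before it on either strand (TCACGTG, which contains the E-box) the share was again 8 of 31, against 3.71%, and the palindrome TCACGTGA, which contains both shorter motifs, stood in 4 of 31 (12.9%), against 0.98%. The 8 were ATP6V0B, ATP6V0D1, ATP6V0E2, ATP6V1G1, CTSA, CTSD, CTSF and LAMP1. None of the TFEB, TFE3 and MITF promoters held these letters. The 31 promoters were held to 1 per gene, a step not applied to the 35116, and neither set was limited to tested genes. Stretches of 6 of the promoters are given because they show the same core letters before genes that differed in direction in the comparison below (ATP6V1G1 higher in DOX, the other 5 lower). Each runs 5′ to 3′ on the strand of the gene, with the E-box in capitals, except where stated for CTSA. A further E-box of ATP6V0B is cut off at the right end of its stretch and stands in lower case.
LAMP1, chr13:113297037-113297112, plus strand, 4 of its 6 E-boxes: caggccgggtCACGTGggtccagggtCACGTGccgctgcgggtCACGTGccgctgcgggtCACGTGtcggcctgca
CTSD, chr11:1763952-1763991, minus strand: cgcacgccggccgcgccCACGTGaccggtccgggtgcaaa
CTSA, chr20:45891293-45891332, plus strand, the nearer to the start of its 2 E-boxes in capitals and the other at the left end in lower case: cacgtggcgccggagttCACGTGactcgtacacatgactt
ATP6V0B, chr1:43974886-43974925, plus strand: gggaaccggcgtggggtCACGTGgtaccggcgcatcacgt
ATP6V0D1, chr16:67481194-67481233, minus strand: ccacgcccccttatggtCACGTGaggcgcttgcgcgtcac
ATP6V1G1, chr9:114587694-114587733, plus strand: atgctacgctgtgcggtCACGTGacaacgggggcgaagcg
A match describes letters, not binding, and no binding was measured here.

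Libraries held 24730517 to 53508590 counts. Mitochondrially encoded genes took 10.4% and 12.2% of the counts in DOX on day 12, against 10.2% and 10.9% in UT, and 55.3% and 58.8% in DOX on day 20, against 72.5% and 72.9% in UT. Levels are therefore given as CPM, counts scaled to a common library size with TMM factors, which set the typical gene equal between libraries, and every direction below is relative to that typical gene. Without this scaling (library sizes alone) the median of all genes in the averaged DOX against UT comparison moved by 0.52 on the log2 scale. MYC itself was at 242 and 232 CPM in DOX on day 12, against 126 and 121 CPM in UT, and at 49.6 and 28.9 CPM in DOX on day 20, against 34.6 and 28.7 CPM in UT. UT day 16 replicate 2 stood apart in fibroblast collagen genes. The summed level of COL1A1, COL1A2, COL3A1 and DCN was 26.9 and 20.8 CPM in DOX on day 16, against 13.7 and 509 CPM in UT. The progenitor markers were PTPRC, MYB, KIT, RUNX1, CD34, GATA2 and SPN. They summed to 813 to 1084 CPM in DOX and 957 to 1437 CPM in UT over days 12 to 20. SPN was the largest part of the sum, with a median of 595 CPM over all libraries. CD34 ranged from 1.98 to 111 CPM and KIT from 4.28 to 98.9 CPM. In the averaged comparison 1 of the 7 was higher in DOX (KIT, 1.67 on the log2 scale) and 4 were lower. The pluripotency genes NANOG, SOX2 and POU5F1 each stayed at or below 0.598 CPM.

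Averaged over days 12 to 20, DOX cells carried less RNA for most cathepsins, for most of the membrane part of the pump and for TFEB, TFE3 and MITF than UT cells. In the cytosolic part of the pump, the A subunit gene ATP6V1A was higher and the B subunit gene ATP6V1B2 lower in DOX. In edgeR's quasi-likelihood test, 28 of the 40 genes had an adjusted p under 0.05, 5 higher and 23 lower, whereas 52.9% of all 20115 tested genes passed, 29.8% higher and 23% lower. The median difference was -0.26 (log2) over the 40 genes and 0.08 over all genes. The split turned to 20 higher and 4 lower with library sizes alone, where 57.6% of all genes were called higher and 8% lower. In either scaling 32 of the 40 lay below the median of all genes. A change of scaling moves all genes and their median by nearly the same amount. This count and the like counts below could therefore hardly differ between the scalings, and their agreement is no check of the result. In cultures of mixed cells, fewer cells of a type and less RNA per cell cannot be told apart.

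**Figure D1:**
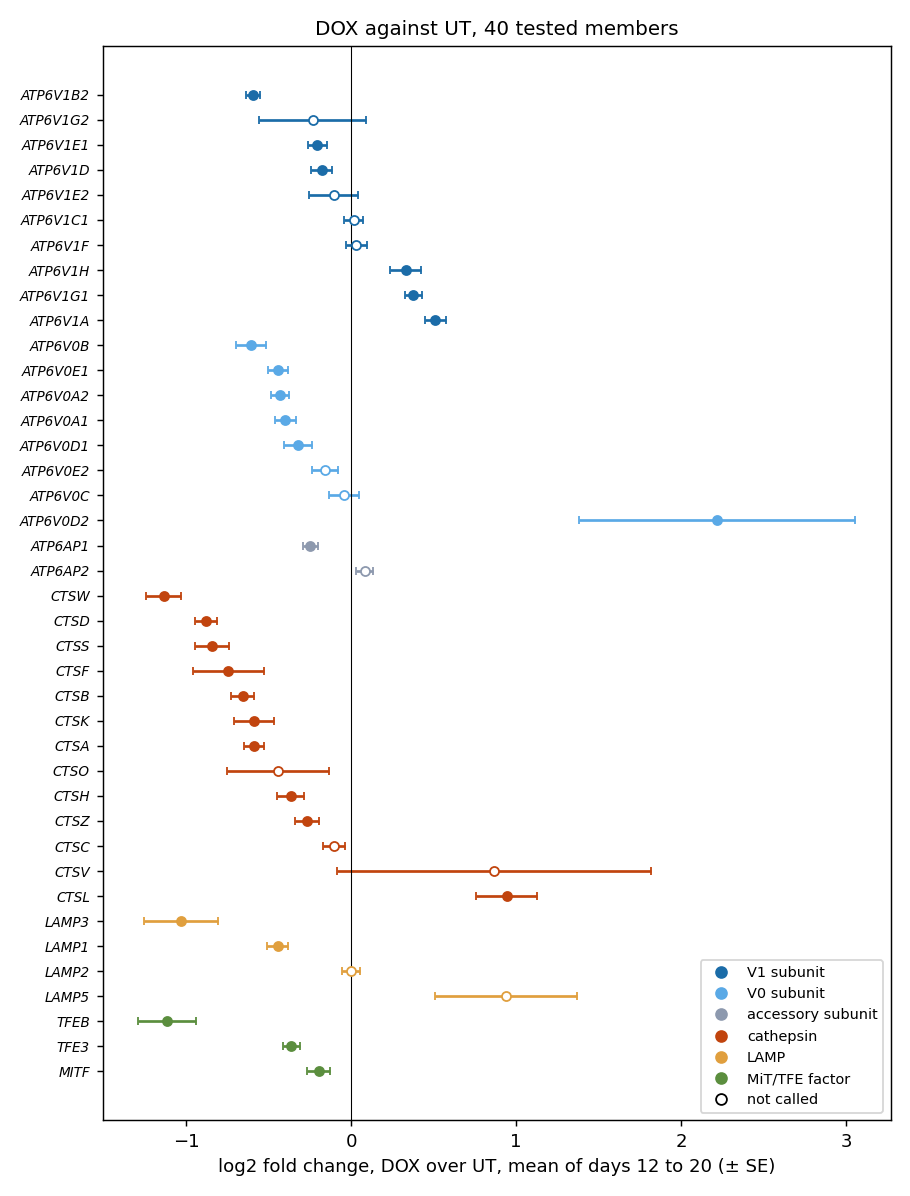
Difference between DOX and UT averaged over days 12 to 20 (log2, x axis) for each of the 40 tested genes, grouped by role, with standard errors as bars. CTSW lies lowest among the cathepsins at -1.14, and ATP6V1A, ATP6V1G1 and ATP6V1H lie above 0 while ATP6V1B2 lies at -0.60. With library sizes alone the split of 5 higher and 23 lower turns to 20 higher and 4 lower.

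Of 13 tested cathepsins, 9 were lower and 1 was higher in DOX under TMM, while library sizes alone gave 3 lower and 3 higher. Their median difference was -0.59, and 11 of 13 lay below the median of all genes in either scaling. CTSD, the aspartic protease that opens protein chains for other cathepsins, lies at chr11:1752752-1764573 on the minus strand of GRCh38. Its lowest, median and highest levels were 78.0, 141 and 275 CPM over the 10 DOX libraries, against 121, 288 and 496 CPM over the 10 UT libraries of the same days. On each of the 5 days both DOX libraries lay below both UT libraries. The difference was -0.88 ± 0.07 (log2, SE), with an adjusted p of 5.01e-09.

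CTSW, a cysteine protease known from cytotoxic lymphocytes, differed most among the cathepsins. It had 3.81 and 3.76 CPM in DOX on day 12, against 7.58 and 7.86 CPM in UT, and 1.28 and 1.94 CPM in DOX on day 20, against 6.43 and 5.73 CPM in UT. The arms did not overlap on either day, and the averaged difference was -1.14 ± 0.11 (adjusted p = 6.02e-08). CTSS, which trims the invariant chain during antigen presentation, was lower by a similar margin (-0.84 ± 0.10, adjusted p = 1.69e-06). On day 18 its DOX libraries came close to UT, at 9.11 and 12.2 CPM, against 19.5 and 12.4 CPM.

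CTSB, an abundant cysteine protease, was at 97.1 and 93.4 CPM in DOX on day 16, against 198 and 282 CPM in UT. By day 20 the arms overlapped, at 191 and 192 CPM in DOX, against 237 and 182 CPM in UT. Its averaged difference was -0.66 ± 0.07 (adjusted p = 2.07e-07). On day 16 it was -1.33, and -1.04 without the UT library rich in collagen RNA. CTSA, the carboxypeptidase that shields the lysosomal sialidase NEU1 and beta-galactosidase GLB1, was lower as well (-0.59 ± 0.06, adjusted p = 1.97e-07), as were CTSF (-0.74 ± 0.21), CTSK (-0.59 ± 0.12), CTSH (-0.37 ± 0.08) and CTSZ (-0.27 ± 0.07). CTSC, which activates the serine proteases of granulocytes, was at -0.10 ± 0.07 and did not pass (adjusted p = 0.216), and neither did CTSO nor CTSV.

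CTSL was the only cathepsin that was higher in DOX under TMM, although CTSC and CTSZ were also called higher with library sizes alone. CTSL cleaves other enzymes into their active form and acts outside lysosomes too. It was at 13.1 and 12.0 CPM in DOX on day 14, against 14.4 and 12.9 CPM in UT, and at 8.22 and 10.0 CPM in DOX on day 18, against 2.95 and 1.58 CPM in UT. The arms thus lay side by side on day 14 and apart on day 18. The averaged difference was 0.94 ± 0.18 (adjusted p = 0.000264), 2.06 on day 18 (adjusted p = 0.00195) and 1.76 on day 20 (adjusted p = 0.00537). The value of day 20 comes from 21.9 and 15.4 CPM in DOX, against 9.40 and 1.88 CPM in UT, so the UT libraries were unequal. It was 3.32 without UT replicate 1 and 1.001 without UT replicate 2, and its call was lost without DOX replicate 1 (1.49, adjusted p = 0.051).

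**Figure D2:**
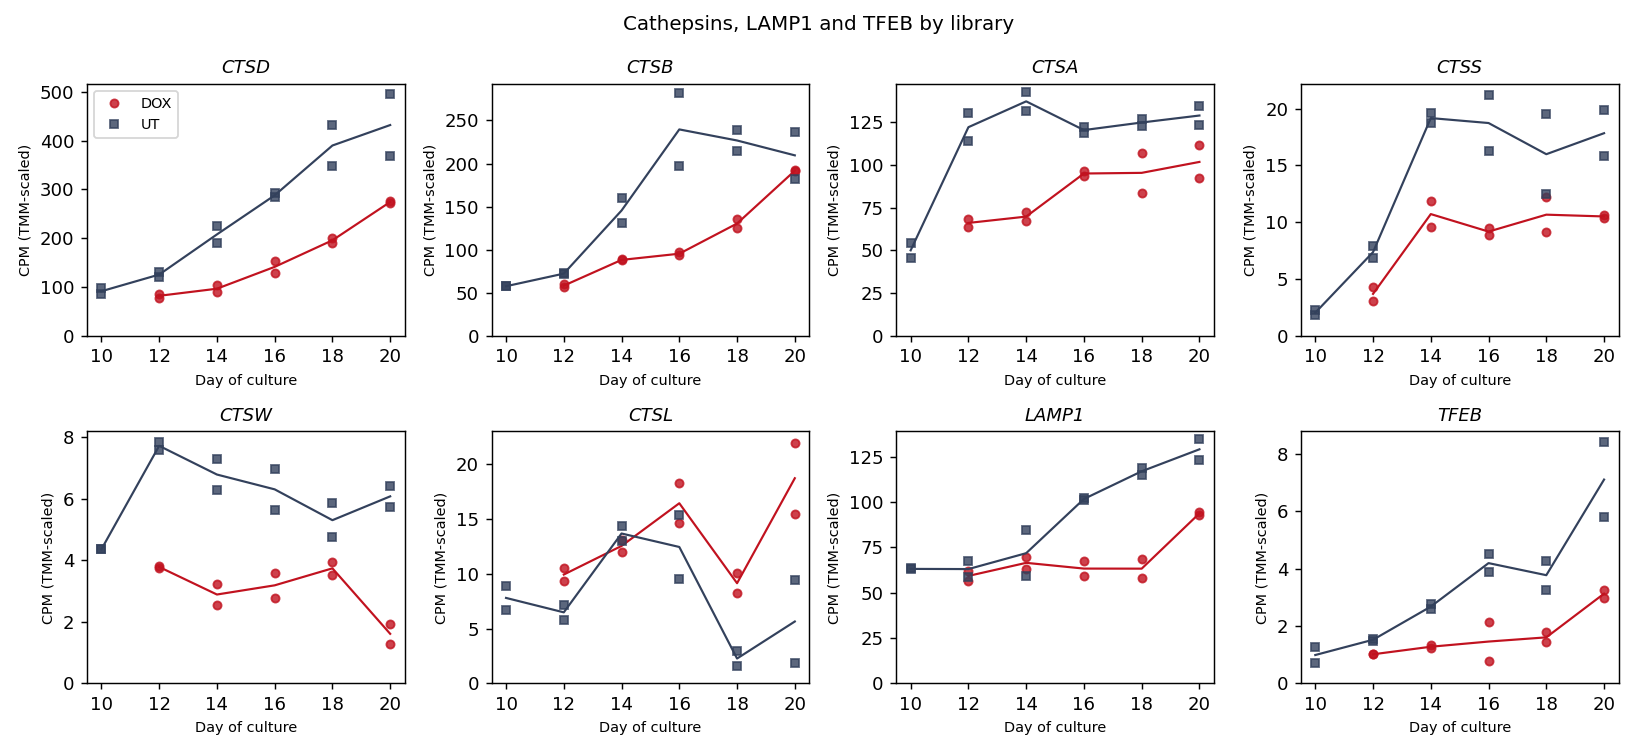
Levels (CPM after TMM scaling, y axis) of 6 cathepsin genes, LAMP1 and TFEB in each library by day of culture (x axis), with DOX as circles, UT as squares and lines through the means of 2 libraries. CTSD, CTSW and TFEB lie lower in DOX on all 5 days, and CTSL lies higher in DOX on days 18 and 20. With library sizes alone CTSD was higher in DOX on day 20 (0.25).

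Compared per length (CPM per kilobase of the median protein-coding transcript), CTSZ was the most abundant cathepsin in both arms, with medians of 207 in DOX and 252 in UT. The order of CTSD and CTSC depended on the day. On day 12 the mean CPM per kilobase of CTSD was 43.3 in DOX and 66.4 in UT, below that of CTSC, at 110.9 in DOX and 157 in UT. On day 20 that of CTSD was 145 in DOX and 229 in UT, above that of CTSC, at 73.0 in DOX and 68.1 in UT. CTSW was near 2.56 in DOX and 4.81 in UT, and CTSE was near 0 in both arms.

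Most markers of myeloid cells were also lower in DOX on average. The summed level of 8 mast cell and eosinophil markers (among them PRG2, EPX and CPA3) was 250 to 313 CPM in DOX on day 12, against 775 to 1005 CPM in UT, and 10757 to 11568 CPM in DOX on day 20, against 20421 to 24330 CPM in UT. In the averaged comparison 7 of these 8 were lower, as were 6 of 6 neutrophil markers and 8 of 9 tested monocyte and macrophage markers, and with library sizes alone 6 of 8, 4 of 6 and 5 of 9 were lower and 1 macrophage marker was higher. On day 20, 0 of the 9 monocyte and macrophage markers were called in either direction under TMM. Their list summed to 142 to 147 CPM in DOX on day 12, against 229.7 to 229.9 CPM in UT. The sum was lower on day 20 in both arms, at 89.5 to 107 CPM in DOX, against 97.6 to 130 CPM in UT. CSF1R and MRC1 weigh most in it, with medians of 63.3 and 28.4 CPM over all libraries. Most single markers of the list went the other way under TMM. In DOX 6 of the 9 were higher and 2 lower on day 20 against day 12 (26.7% and 29.7% of all genes). In UT 6 were higher and 1 lower on day 20 against day 10 (28.1% and 34.2%), and 4 and 4 with library sizes alone. The macrophage marker MARCO had a median of 0 CPM and the osteoclast marker CALCR had 0 counts in every library. Averaged over days 12 to 20, all 7 erythroid, 5 megakaryocyte and 4 endothelial markers were higher in DOX in both scalings. On day 12 under TMM, 4 of 13 cathepsins were lower, where 2.26% of all genes were. Also lower were 5 of 8 mast cell and eosinophil, 3 of 6 neutrophil and 3 of 9 monocyte and macrophage markers. On the same day 1 erythroid marker was higher and 2 megakaryocyte markers were lower. The endothelial markers then summed to 325 to 343 CPM in DOX, against 530.1 to 556 CPM in UT. The lymphoid list, to which CTSW is close by its known cell type, had 2 of 6 lower under TMM, against 2 lower and 1 higher with library sizes alone, and summed to 7.78 to 32.8 CPM in DOX and 12.1 to 38.0 CPM in UT over days 12 to 20. The part of these markers and of the mitochondrial share in the cathepsin differences was not tested.

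In the pump, the V0 part had 5 of 8 tested genes lower and 1 higher under TMM, where 23% of all genes were lower and 29.8% higher. Library sizes alone gave 3 higher and 0 lower, where 57.6% of all genes were higher and 8% lower. Below the median of all genes lay 7 of 8 in either scaling. ATP6V0B, a subunit of the proton-carrying c ring, had the largest difference of the 5 lower genes (-0.61 ± 0.09, adjusted p = 1.42e-05). It was at 33.1 and 29.5 CPM in DOX on day 12, against 42.1 and 33.1 CPM in UT, and at 47.8 and 45.1 CPM in DOX on day 18, against 102 and 75.4 CPM in UT. The arms lay apart on day 18 and nearly met on day 12. The small membrane subunit ATP6V0E1 (-0.44 ± 0.06) and the d subunit ATP6V0D1 (-0.32 ± 0.09) were also lower, and the main c subunit ATP6V0C did not pass (-0.04 ± 0.09, adjusted p = 0.748).

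The a subunit, which forms the proton path, comes from several genes that direct the pump to different membranes. ATP6V0A2, known from the Golgi and endosomes, was at 54.8 and 60.4 CPM in DOX on day 12, against 49.1 and 50.1 CPM in UT. On day 20 it was at 43.8 and 47.3 CPM in DOX, against 90.4 and 88.0 CPM in UT. The DOX libraries thus lay just above UT on day 12 and far below it on day 20. The differences were 0.22 on day 12 (adjusted p = 0.467) and -0.97 on day 20 (adjusted p = 2.01e-05), and -0.43 ± 0.05 on average. ATP6V0A1 was lower on average too (-0.40 ± 0.06, adjusted p = 3.35e-05), and ATP6V0A4, known from kidney, had at most 3 counts in a library. A further a subunit, TCIRG1, known from osteoclasts and lysosomes, falls outside the naming rule and was lower in DOX (-1.08 ± 0.09, adjusted p = 1.04e-08), ranging from 11.8 to 52.3 CPM per kilobase in DOX and from 16.7 to 93.8 in UT.

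ATP6V0D2, a d subunit known from osteoclasts, macrophages and kidney, is the V0 gene counted as higher, and its value rests on very few reads. It had 15 and 19 counts in DOX on day 12, against 29 and 36 counts in UT. On day 20 it had 14 and 7 counts in DOX, against 0 and 0 in UT. Its level was thus lower in DOX on day 12, but it was not called lower on any day. Taking 3 counts per library as the floor for 0 in UT, the mean DOX level was 2.37-fold this floor on day 18 and 1.78-fold on day 20. The spread of the DOX counts is not covered by these values. With days 18 and 20 at these values the averaged difference was -0.32, whereas the fit gave 2.21 (adjusted p = 0.035). That call was lost in 16 of 36 alternative analyses, 12 of them leaving out a single library, and the fit gave 3.46 without UT day 16 replicate 2.

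The V1 part had 3 of 10 tested genes higher and 3 lower under TMM, and 8 higher and 0 lower with library sizes alone. Over all genes 29.8% were called higher and 23% lower under TMM, and 57.6% and 8% with library sizes alone. The V1 counts under TMM were thus near the shares of all genes. ATP6V1A, the catalytic A subunit that binds ATP, lies at chr3:113747019-113812056 on the plus strand of GRCh38. It was at 125 and 132 CPM in DOX on day 12, against 136 and 152 CPM in UT, and at 57.9 and 59.6 CPM in DOX on day 18, against 26.2 and 34.0 CPM in UT. Levels were lower later in both arms, and the DOX libraries lay below UT on day 12 and above it on days 14 to 20. The averaged difference was 0.51 ± 0.06 (adjusted p = 1.25e-06).

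ATP6V1B2, the B subunit that alternates with A in the ring, went the other way between the arms under TMM. It was at 107 and 102 CPM in DOX on day 12, against 156 and 148 CPM in UT, and at 129 and 117 CPM in DOX on day 20, against 176 and 174 CPM in UT. Both DOX libraries lay below both UT libraries on each of the 5 days. The averaged difference was -0.60 ± 0.04 (adjusted p = 3.22e-09). The ratio of ATP6V1A to ATP6V1B2 counts within a library needs no scaling between libraries. It was 1.17 and 1.29 in DOX on day 12, against 0.874 and 1.03 in UT, and 0.303 and 0.315 in DOX on day 20, against 0.155 and 0.132 in UT. The ratio lay higher in both DOX libraries than in both UT libraries on every day from 12 to 20 and was lower on day 20 than on day 12 in each arm.

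Of the remaining V1 genes, the stalk subunit ATP6V1G1 (0.38 ± 0.05, adjusted p = 4.93e-06) and the regulatory subunit ATP6V1H (0.33 ± 0.09, adjusted p = 0.00617) were higher in DOX. ATP6V1E1 (-0.21 ± 0.06) and ATP6V1D (-0.18 ± 0.06) were lower by less, and ATP6V1D lost its call in 11 of the analyses that left out 1 library, over which its difference ranged from -0.19 to -0.14. Among the accessory subunits, which bind V0 on its lumenal side, ATP6AP1 was lower (-0.25 ± 0.05, adjusted p = 0.00022) and ATP6AP2 did not pass (0.08 ± 0.05).

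**Figure D3:**
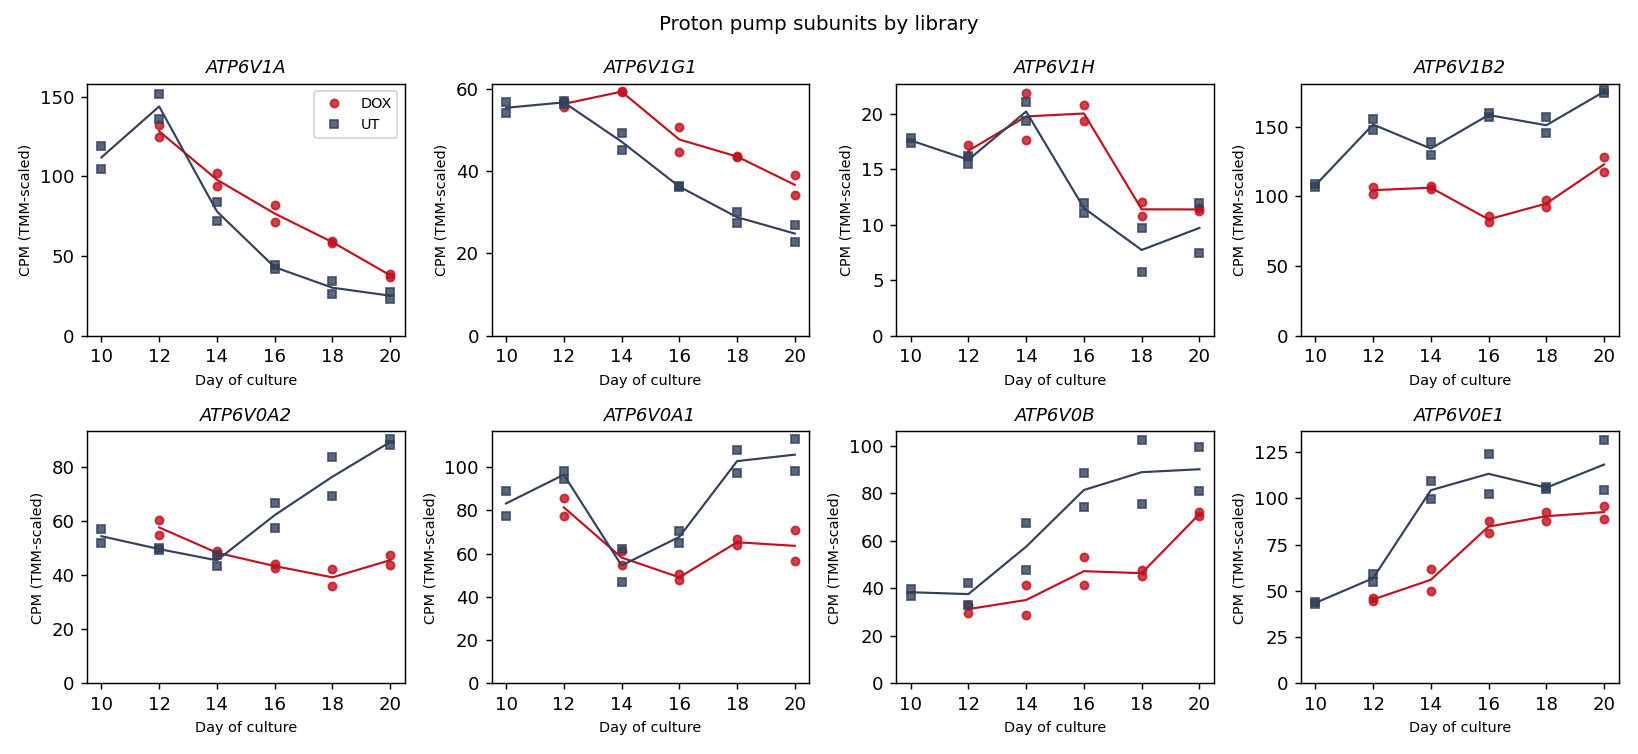
Levels (CPM after TMM scaling, y axis) of 8 V-ATPase subunit genes in each library by day of culture (x axis), with DOX as circles, UT as squares and lines through the means of 2 libraries. ATP6V1A and ATP6V1G1 lie higher in DOX from day 14, ATP6V1B2 lies lower in DOX on all 5 days, and ATP6V0A2 separates from day 16. With library sizes alone the V0 genes turn from 1 higher and 5 lower to 3 higher and 0 lower.

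Among the LAMP proteins, heavily glycosylated proteins that line the lysosomal membrane, 2 of 4 were lower and 0 higher under TMM. With library sizes alone 2 were higher and 0 lower. Of all genes 23% were lower and 29.8% higher under TMM, and 8% and 57.6% with library sizes alone. LAMP1 was at 57.9 and 68.6 CPM in DOX on day 18, against 115 and 119 CPM in UT, and its averaged difference was -0.45 ± 0.06 (adjusted p = 1.18e-05). LAMP3, known from mature dendritic cells, was lower at far lower levels (-1.03 ± 0.22, adjusted p = 0.000712). LAMP2, which is needed for fusion of autophagosomes with lysosomes, changed side. It was at 69.3 and 70.2 CPM in DOX on day 14, against 53.1 and 47.3 CPM in UT, and at 34.1 and 28.4 CPM in DOX on day 20, against 47.4 and 38.4 CPM in UT. It was higher in DOX on days 14 (0.47, adjusted p = 0.00871) and 16 (0.51, adjusted p = 0.00405) and lower on days 18 (-0.49, adjusted p = 0.00661) and 20 (-0.45, adjusted p = 0.0158). Each of these calls was lost without some library. On day 14 it was 0.48 without DOX replicate 2 and 0.40 without UT replicate 2, on day 16 0.41 without UT replicate 2, on day 18 -0.44 without DOX replicate 2 and -0.37 without UT replicate 1, and on day 20 -0.32 without DOX replicate 2 and -0.29 without UT replicate 1. The differences of days 18 and 20 were 0.43 and 0.46 with library sizes alone.

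All 3 MiT/TFE factors were lower in DOX under TMM, while library sizes alone gave 2 higher and 1 lower; all 3 lay below the median of all genes in either scaling. TFEB, at chr6:41683978-41736259 on the minus strand of GRCh38, was at 1.32 and 1.24 CPM in DOX on day 14, against 2.59 and 2.77 CPM in UT. On day 20 it was at 3.27 and 2.99 CPM in DOX, against 8.41 and 5.82 CPM in UT. Both DOX libraries lay below both UT libraries on all 5 days, with an averaged difference of -1.12 ± 0.18 (adjusted p = 2.97e-05). TFEB is a low gene here, with 36 to 166 counts in a library. TFE3 (-0.36 ± 0.05, adjusted p = 1.15e-05) ranged from 20.7 to 30.7 CPM in DOX and from 28.4 to 38.7 CPM in UT. MITF (-0.20 ± 0.07, adjusted p = 0.0255) lost its call in 11 of the analyses that left out 1 library, over which it ranged from -0.23 to -0.13.

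Day by day, the 40 genes gave 5, 18, 22, 16 and 15 calls on days 12, 14, 16, 18 and 20, where 3.11%, 27%, 39.9%, 35.8% and 27.8% of all tested genes passed. The calls were 0 higher and 5 lower on day 12 (0.845% higher and 2.26% lower over all genes), 3 and 15 on day 14 (15.3% and 11.7%), 5 and 17 on day 16 (21.2% and 18.7%), 5 and 11 on day 18 (19.8% and 16%), and 4 and 11 on day 20 (15.9% and 11.9%). Under library sizes alone they were 0 and 4, 1 and 10, 22 and 0, 22 and 0, and 24 and 1, higher and lower in that order. In that scaling 0.313%, 13.1%, 51.1%, 53.7% and 53% of all genes were called higher on the 5 days and 2.03%, 10.7%, 4.99%, 3.21% and 2.17% lower, so the higher calls of the last 3 days were near the share of all genes. The comparisons of single days and the average use the same libraries. The day 20 libraries of each arm also enter that arm's course below. The 5 genes of day 12 were CTSA (-0.89, adjusted p = 0.0014), ATP6V1B2 (-0.54, adjusted p = 0.00534), CTSW (-1.03, adjusted p = 0.0167), CTSS (adjusted p = 0.0232) and CTSD (-0.62, adjusted p = 0.0313). On that day mitochondrially encoded genes took 10.4% and 12.2% of counts in DOX, against 10.2% and 10.9% in UT. Their part in the 5 differences was not tested. The day 12 count fell to 1 without DOX replicate 1, 0 without DOX replicate 2, 1 without UT replicate 1 and 2 without UT replicate 2, and the day 14 count was 10, 6, 11 and 10 without the same libraries of its day. Without DOX replicate 1 the day 20 count was 8. Leaving out the UT library rich in collagen RNA gave 18 calls on day 16, 4 higher and 14 lower, and 27 in the averaged comparison, 5 higher and 22 lower.

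CTSD and ATP6V1B2 were lower in DOX with an adjusted p under 0.05 on all 5 days, and TFEB, CTSS and CTSW on 4 of them. ATP6V1B2 was at 0.01 on day 16 and CTSD at 0.25 on day 20 with library sizes alone. Without UT day 20 replicate 1 the CTSD call of day 20 was lost (-0.41). TFEB on day 14 lost its call without any of its 4 libraries, although the difference stayed at -1.10 to -1.004. On day 16 it was lost without DOX replicate 2 (-0.95), and was -2.43 without DOX replicate 1. ATP6V1G1 was higher in DOX on 4 days, and ATP6V1A on days 16 (0.83, adjusted p = 8.72e-05), 18 (0.96, adjusted p = 3.54e-05) and 20 (0.60, adjusted p = 0.00465), the last lost without UT replicate 2 (0.48). Averaged over days 12 and 14 alone, 17 of the 40 genes passed, 1 higher and 16 lower, where 25.1% of all genes passed, 14.2% higher and 10.8% lower. These included 8 of 13 cathepsins and 3 of 8 V0 genes as lower and 1 V1 gene as higher, and ATP6V1A, ATP6V1G1, ATP6V1H and CTSL did not pass.

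**Figure D4:**
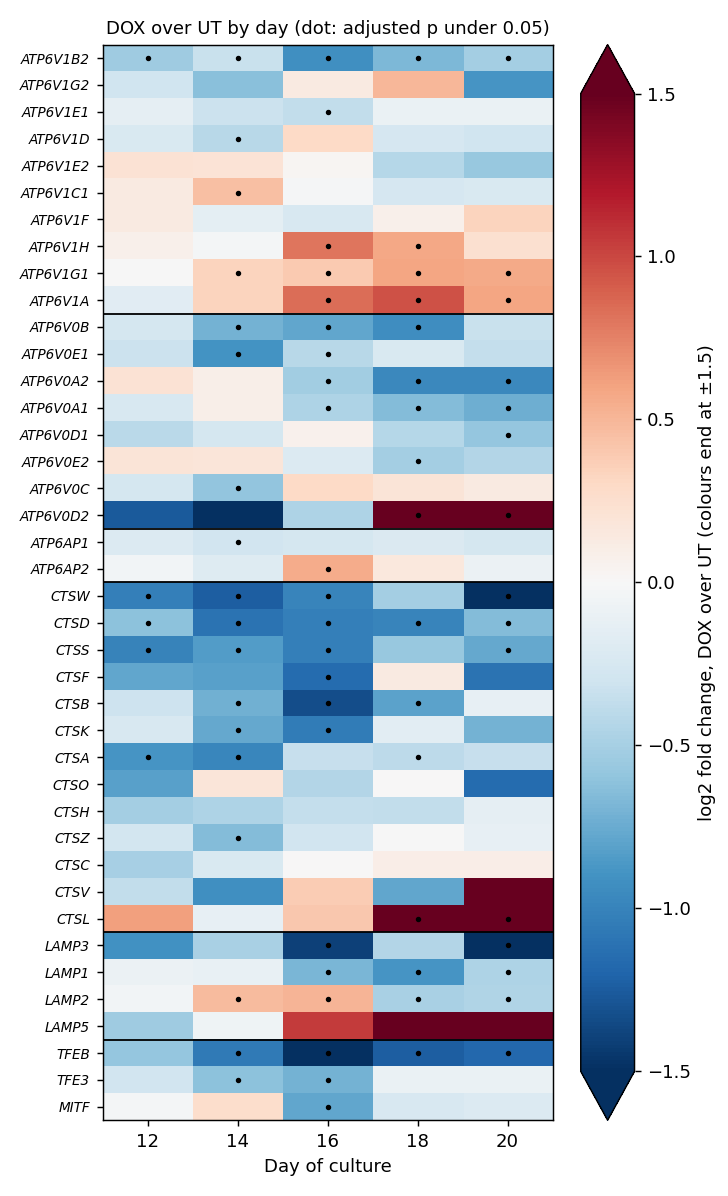
Difference between DOX and UT (log2) on each of days 12 to 20 for the 40 tested genes, grouped by role, on a colour scale, with the calls at an adjusted p under 0.05 marked. CTSD and ATP6V1B2 are lower on all 5 days, LAMP2 changes side between days 16 and 18, and calls number 5 on day 12 and 22 on day 16. With library sizes alone the calls of days 16, 18 and 20 turn to 22 higher and 0 lower, 22 and 0, and 24 and 1.

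Within the UT arm, 32 of the 40 genes differed between day 20 and day 10, 22 higher and 10 lower on day 20, where 62.3% of all tested genes passed, 28.1% higher and 34.2% lower. Library sizes alone moved the median of all genes by -2.16 and turned the split to 2 higher and 33 lower, where 7.22% of all genes were called higher and 71.8% lower. The median was 0.35 over the 40 genes and -0.24 over all genes under TMM. CTSS was higher on day 20 (3.13), at 15.8 and 19.8 CPM on day 20, against 2.25 and 1.79 CPM on day 10. CTSD (2.24) was at 496 and 368 CPM on day 20, against 97.2 and 85.0 CPM on day 10. TFEB (2.83), CTSB (1.87), CTSA (1.37), MITF (1.16), LAMP1 (1.03), ATP6V0E1 (1.44), ATP6V0B (1.23) and ATP6V1E2 (2.17) were higher too, and CTSF (-1.57), ATP6V1A (-2.16), ATP6V1G1 (-1.16) and LAMP2 (-0.73) were lower. The cathepsins gave 7 higher and 3 lower, the V0 genes 5 and 1, and the V1 genes 5 and 5, against 1 and 10, 0 and 7, and 0 and 9 with library sizes alone. The CTSF call was lost without UT day 20 replicate 1 (-1.19), and its difference was -2.24 without UT day 20 replicate 2. ATP6V1E2 was at 7.62 and 16.6 CPM on day 20, and its difference was 1.47 without UT day 20 replicate 2. Mast cell and eosinophil markers summed to 20421 to 24330 CPM on day 20, against 30.4 to 31.5 CPM on day 10. Mitochondrially encoded genes took 72.5% and 72.9% of counts on day 20, against 9.34% and 8.51% on day 10. The part of both in these differences was not tested.

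Within the DOX arm, 30 of the 40 genes differed between day 20 and day 12, 17 higher and 13 lower on day 20, where 56.4% of all tested genes passed, 26.7% higher and 29.7% lower. Library sizes alone turned the split to 2 higher and 25 lower, where 8.9% of all genes were called higher and 57.8% lower. CTSD (1.75), CTSB (1.72), TFEB (1.62), CTSS (1.51), ATP6V0B (1.19), ATP6V0E1 (1.03) and LAMP1 (0.66) were higher on day 20. CTSF (-2.52), ATP6V1A (-1.76), CTSW (-1.24) and LAMP2 (-1.22) were lower. Mast cell and eosinophil markers summed to 10757 to 11568 CPM on day 20, against 250 to 313 CPM on day 12, and mitochondrially encoded genes took 55.3% and 58.8% of counts, against 10.4% and 12.2%. Their part in these differences was not tested. The course starts on day 12 in DOX and on day 10 in UT, so sizes were not compared between the arms. ATP6V0A2 was lower on day 20 in DOX (-0.34, adjusted p = 0.0247) and higher on day 20 in UT (0.71, adjusted p = 5.71e-05), against -1.46 in UT with library sizes alone. The DOX call was lost without DOX day 12 replicate 2 (-0.30) and without DOX day 20 replicate 1 (-0.31).

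Whether the arms parted over time was tested directly, as the difference between DOX and UT on day 20 less that on day 12. It passed for 4 of the 40 genes, 3 higher and 1 lower, where 8.96% of all tested genes passed, 5.62% higher and 3.34% lower. ATP6V0A2 changed by -1.19 ± 0.17 (adjusted p = 0.000247), ATP6V1A by 0.76 ± 0.20 (adjusted p = 0.0197) and ATP6V1G1 by 0.58 ± 0.16 (adjusted p = 0.032). The fitted change of ATP6V0D2 (8.67) rests on 0 counts in UT on day 20. The count was 1 without either DOX day 12 library, DOX day 20 replicate 1, UT day 12 replicate 2 or UT day 20 replicate 2, and 2 without UT day 12 replicate 1. Scaled by library sizes alone, 26 genes passed, where 47.4% of all genes did, and ATP6V0A2 did not (-0.21). CTSD (-0.04 ± 0.21) and ATP6V1B2 (0.03 ± 0.14) did not pass.

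Other lysosomal genes, taken from hand-written lists, were set beside the 40. Of 33 hydrolases and cofactors, 19 were lower and 6 higher in DOX under TMM, and 3 lower and 19 higher with library sizes alone. For this and the following lists, the shares of all genes were 29.8% higher and 23% lower under TMM. With library sizes alone they were 57.6% and 8%, so the 19 higher hydrolases and cofactors were near the share of all genes. Examples are GALNS, a sulfatase of keratan sulfate (-0.88), SMPD1, acid sphingomyelinase (-0.87), and ARSA, arylsulfatase A (-0.79), whereas LGMN, the asparaginyl protease that processes cathepsins, was higher (1.26). PSAP, the most abundant of them, was slightly lower (-0.19). Of 20 membrane proteins, transporters and sorting receptors, 10 were lower and 5 higher under TMM, against 4 lower and 12 higher with library sizes alone. The tetraspanin CD63 (-0.84) and the calcium channel MCOLN1 (-0.91) were lower, and IGF2R, the mannose 6-phosphate receptor that sorts hydrolases, was higher (0.75). Of 5 cystatins, which inhibit cathepsins, 3 were lower and 0 higher under TMM (CST7 -1.01, CST3 -0.53 and CSTA -0.43), and 1 lower and 1 higher with library sizes alone.

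Factors that assemble or regulate the pump were even, with 4 higher and 4 lower of 10 under TMM and 8 higher and 1 lower with library sizes alone. DMXL1 (0.68), part of the complex that joins V1 to V0, and OXR1 (0.57), which releases V1 in yeast, were higher, and ROGDI (-0.72) and TLDC2 (-1.43) were lower. The assembly factor VMA21 was at 0.02 and did not pass (adjusted p = 0.789). In the machinery that senses nutrients at the lysosome, 5 were higher and 8 lower of 17 under TMM, against 11 higher and 0 lower with library sizes alone. RHEB, the activator of MTORC1, was higher (0.80), as was FNIP1 (0.56), while LAMTOR4 (-0.64), RRAGC (-0.58) and the most abundant of them, LAMTOR5 (-0.33), were lower. The median difference was -0.25 for hydrolases, -0.24 for membrane proteins, 0.08 for assembly factors, -0.53 for cystatins and 0.06 for nutrient sensing, against 0.08 for all genes.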

How the data were processed

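PolyA RNA of 22 libraries was analysed. The deposited table gives expected counts (estimated reads per gene from Salmon, not normalised), of which 90.7% were whole numbers within 0.001; they were rounded. Per the submitters' processing notes, the authors used Trim Galore 0.6.5, STAR and Salmon with hg38; further versions, the gene annotation and the strand setting are not given in the sources used here, so genes that overlap a neighbour or have a near-identical copy could share reads.

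Genes passing filterByExpr of edgeR 4.0.16 (minimum count 10; 20115 genes) were TMM-scaled and fitted by quasi-likelihood with 1 coefficient per group, all 22 libraries and 11 residual degrees of freedom; the biological coefficient of variation was 0.184. Every comparison was a contrast of this fit, with Benjamini-Hochberg adjustment over all genes tested and calls at 0.05. An error given after a difference is its standard error, back-calculated from the F statistic. Positions and transcript lengths came from GENCODE 29 (GRCh38), which matched all 45 genes by identifier, and promoters from RefSeq. Where a group had 0 counts, 3 counts per library served as the floor, which covers counting error only. The fit was tested on simulated data. R was 4.3.3.

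The genes and lists were chosen with earlier results of these data known. Any gene of the naming rule could be named; from each pathway list the most abundant and up to 4 called genes with the largest averaged change. Alternatives were DESeq2 1.42.0, scaling by its size factors or by library sizes alone, testing without the filter, only the groups compared, a replicate block, leaving out each library or day, days 12 and 14 alone, removing mitochondrially encoded genes, and, added after seeing the data, library sizes alone with those genes removed.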

Additional observations from a re-analysis of the deposited data

Results flagged for a closer look

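For 4 genes the difference between DOX and UT itself differed between day 20 and day 12, tested as the interaction of arm and day in edgeR with adjustment over all genes. These are 4 of 40, where 8.96% of all tested genes passed, and leaving out any of 5 single libraries left 1 of them. The change of ATP6V1A was 0.76 (log2), with a difference of 0.60 on day 20, against -0.16 on day 12. ATP6V1G1 changed by 0.58, with 0.57 on day 20, against -0.01 on day 12. ATP6V0A2 changed by -1.19, with -0.97 on day 20, against 0.22 on day 12. With library sizes alone it changed by -0.21 and did not pass. The fitted change of ATP6V0D2, 8.67, rests on 0 counts in both UT libraries of day 20 and is no bound. Mitochondrially encoded genes took 55.3% and 58.8% of counts in DOX on day 20, against 72.5% and 72.9% in UT, and their part in these changes was not tested.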

How the results depend on the processing

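Of 2179 values of 107 single-gene results under the alternatives, 1894 kept direction and side of the threshold, 170 lost a call, 21 gained one and 94 turned sign, and the cause was not tested. CTSD, CTSS, CTSW and TFEB kept their averaged call in all 36 alternatives. CTSZ lost its averaged call without day 14 and ATP6V1H without day 16. Genes at low counts (ATP6V0D2, CTSV, CTSO, ATP6V1G2 and LAMP5) are limited by depth.

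Counts of called genes moved as follows. The averaged count was 17 on days 12 and 14 alone. The day 12 count was 21 with only the groups compared and 9 with DESeq2. The share of all genes called is not given here with only the groups compared, with DESeq2 or without 1 library. The counts under those settings therefore cannot be set against all genes, and no conclusion is drawn from their size. The day 14 count was 11 with library sizes alone. The day 20 count was 25 with library sizes alone, 3 with only the groups compared and 9 with library sizes alone after mitochondrial genes were removed. In the last of these settings 6502 of all tested genes were called on day 20, against 5584 under TMM. The change from day 12 to day 20 gave 26 with library sizes alone. Leaving out 1 library gave 25 to 28 calls on average, 0 to 2 on day 12, 6 to 11 on day 14, 15 to 18 on day 16, 12 to 14 on day 18, 8 to 11 on day 20, 26 to 27 in the UT course, 23 to 24 in the DOX course and 1 to 6 for the change; the remaining library of that group then borrowed its spread from the other groups.

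Signs turned most often with library sizes alone. The averaged differences were then 0.54 for LAMP2, 0.13 for ATP6V0A1, 0.17 for TFE3, 0.29 for ATP6AP1, 0.36 for ATP6V1D, 0.27 for CTSZ, 0.17 for CTSH, 0.44 for CTSC, 0.0905 for ATP6V0E1, 0.33 for ATP6V1E1, 0.22 for ATP6V0D1, 0.38 for ATP6V0E2, 0.10 for ATP6V0A2, 0.50 for ATP6V0C, 0.0904 for LAMP1, 0.34 for MITF, 0.30 for ATP6V1G2, 0.42 for ATP6V1E2 and 0.10 for CTSO. Single days gave 0.00911 for ATP6V1B2 on day 16, 0.43 for LAMP2 and 0.0268 for LAMP1 on day 18, and 0.46 for LAMP2 and 0.25 for CTSD on day 20. The UT course gave -0.81 for CTSA, -0.73 for ATP6V0E1, -0.94 for ATP6V0B, -1.48 for ATP6V1B2, -0.30 for CTSB, -1.46 for ATP6V0A2, -1.15 for LAMP1, -1.02 for MITF and -0.0411 for ATP6V1E2, and the DOX course -0.155 for ATP6V0E1, -0.95 for ATP6V1B2 and -0.53 for LAMP1. With mitochondrial genes also removed, LAMP2 was 0.10, CTSC 3.62e-05 and ATP6V0C 0.0559.

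On days 12 and 14 alone LAMP2 was 0.22, LAMP5 -0.30, ATP6V1F -0.0108, CTSV -0.64, ATP6V0D2 -1.60, ATP6V0E2 0.19, ATP6AP2 -0.12, ATP6V0A2 0.15, MITF 0.12 and ATP6V1E2 0.21. Without day 12 LAMP2 was 0.00946, ATP6V1C1 -0.0140 and ATP6V0C 0.0108, without day 14 ATP6V1C1 was -0.0947 and ATP6V0C 0.0924, without day 16 ATP6AP2 was -0.0390, without day 18 LAMP2 was 0.12, and without day 20 LAMP2 was 0.11, ATP6V1F -0.0469, CTSV -0.42 and ATP6V1E2 0.00743. DESeq2 gave -0.0151 for ATP6V1F and -0.0307 for ATP6V1C1, and its size factors -0.0153 and -0.0306. LAMP2 was 0.0280 without the filter and 0.0117 with mitochondrial genes removed. Leaving out 1 library gave averaged ranges of -0.0194 to 0.0421 for LAMP2, -0.22 to 0.0371 for ATP6V1E2, -0.33 to 2.20 for CTSV, -0.0174 to 0.0611 for ATP6V1C1, -0.0925 to 0.0369 for ATP6V0C, -0.00249 to 0.0888 for ATP6V1F, -0.41 to 1.17 for ATP6V1G2 and -0.60 to 0.16 for CTSO, and -0.0667 to 0.00174 for LAMP2 on day 12.

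Deviations of equal replicate numbers correlated little, at -0.016 to 0.195 over 55 pairs of groups, with a median of 0.038 and 5 above 0.1. With the number as a replicate block the counts among the 40 genes were 28 on average, 6, 20, 24, 18 and 16 on days 12, 14, 16, 18 and 20, 32 and 30 in the UT and DOX courses and 5 for the change, and LAMP2 was at 0.00209 on average. Over all 20115 genes the block gave more calls in every comparison. Examples are 950 on day 12, 6056 on day 14 and 2418 for the change, against 625, 5422 and 1802 without it.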
